A study of Arabidopsis thaliana with 16 samples.

Results

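The heat by genotype contrast asks, gene by gene, whether ribosome footprints changed with heat by a different factor in the fust1 mutant than in the wild type Col-0. It was formed from the 8 Ribo-seq libraries of the 16 in the series as the log2 heat change in fust1 minus the log2 heat change in Col-0. A positive value means that heat left a gene higher, or lowered it less, in fust1 than in Col-0. All 27628 genes of the table were taken, and 18445 had enough counts to be tested. The material was 10-day-old Arabidopsis thaliana seedlings of Col-0 and of fust1, kept at 22 °C or heat shocked at 37 °C, with 2 biological replicates (n = 2 libraries) in each of the 4 groups. Matched RNA-seq libraries, also 2 per group, came from the same design. The labels name neither the length of the heat treatment nor the kind of fust1 allele, and whole seedlings were used, so more footprints per cell and more cells of a type cannot be told apart.

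Ribo-seq counts the short stretches of mRNA that a translating ribosome shields from nuclease, so a gene's footprints reflect both how much of its mRNA is present and how densely ribosomes occupy it. In heat shock, plant cells slow the translation of most mRNAs, collect many of them in stress granules, and translate the newly made mRNAs of heat shock proteins efficiently. Heat shock factors switch on those genes, and the chaperones they encode keep other proteins folded. The title of the study presents FUST1 as a heat-responsive switch for global translation, which makes the difference between the heat responses of mutant and wild type its central comparison.

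The footprint libraries held between 6175906 and 13968790 counts, and the Col-0 37 °C libraries were the shallowest, at 6271023 and 6175906. After TMM scaling, which allows for the large share of footprints on a few heat genes, their effective sizes were 3063240 and 3286340 counts, against 5504910 and 7319920 in fust1 at 37 °C. Of the tested genes 865 had no count in Col-0 at 37 °C and 269 had none in fust1 at 37 °C. Replicates correlated across genes at r = 0.984 and 0.987 in the 22 °C groups of Col-0 and fust1, at 0.934 in Col-0 at 37 °C and at 0.959 in fust1 at 37 °C. The 46 nuclear photosystem and antenna genes were all detected and summed to between 51151.8 and 146634 CPM (counts scaled to the effective library size). The 13 shoot epidermis markers summed to 398 to 622 CPM and the 18 root markers to 104 to 182 CPM. Every marker had a count in at least 1 library, and 16 root markers had enough counts to be tested. Whether green and root tissue were both represented was not tested. Without a spike-in, every level is relative to its library. The SQN gene, which encodes cyclophilin 40, had 0 and 1 footprint counts in fust1 at 22 °C and 176 and 138 in Col-0, and its RNA stood at 0 and 0 CPM against 6.14 and 5.56 CPM, so the mutant line lacked nearly all of its transcript. In every difference between the genotypes given here, the fust1 mutation and the loss of SQN transcript cannot be told apart.

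Heat changed footprints by a different factor in the mutant for 1605 genes (edgeR quasi-likelihood test, Benjamini-Hochberg adjusted p below 0.05). The contrast was higher in fust1 for 1012 genes, 5.49 % of those tested, and lower for 593 genes, 3.21 %. It exceeded 2-fold for 809 of the former and 348 of the latter. Over all tested genes its median was 0.08 on the log2 scale, with an interquartile range from -0.42 to 0.72. With each library left out in turn, 482 to 1328 genes were called higher and 219 to 559 lower. Leaving out Col-0 22 °C replicate 1 left 482 and 219, and leaving out Col-0 37 °C replicate 1 left 537 and 250. Without fust1 22 °C replicate 1 the counts were 645 and 266, and without fust1 22 °C replicate 2 they were 660 and 388. Scaling by library totals without TMM gave 1118 higher and 299 lower (78.9 % higher in place of 63.1 %) and moved the median of all genes to 0.20.

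The genes called higher were mostly ones whose footprints were lower at 37 °C in Col-0 and less so in fust1. Their median heat change was -2.14 in Col-0 and -0.49 in fust1 on the log2 scale. Their median level was 29.3 CPM in Col-0 at 22 °C and 7.17 CPM at 37 °C, and in fust1 it was 22.5 and 15.4 CPM. At 22 °C the median difference of fust1 from Col-0 was -0.35 and at 37 °C it was 1.16. The genes called lower had a median heat change of 1.29 in Col-0 and 0.19 in fust1. Their median levels were 21.0 and 53.1 CPM in Col-0 and 26.9 and 33.3 CPM in fust1, at 22 and 37 °C. Both sets were chosen by the contrast these medians enter, and the contrasts share libraries, so the medians are a description only.

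**Figure D1:**
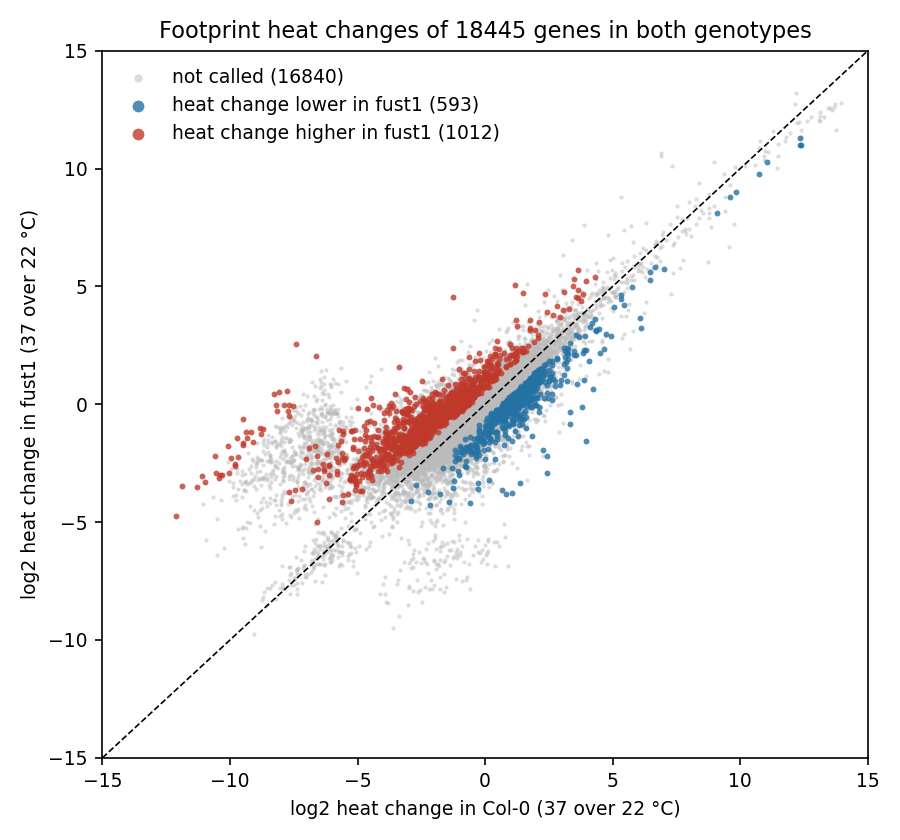
Each point is 1 of the 18445 tested genes, with its log2 footprint change from 22 to 37 °C in Col-0 on the x axis and in fust1 on the y axis, and the dashed line marks equal changes. The 1012 genes called higher in fust1 lie above the line, mostly left of 0 in Col-0, the 593 called lower lie below it, mostly right of 0, and points far to the left or far down include genes without a count in a 37 °C group.

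Genes called were ranked by contrast if they had at least 10 CPM in a group and counts in every library. Their heat changes also had to be without overlap between the genotypes. The highest contrast was that of GTE2, a bromodomain protein of the GTE family that reads acetylated histones. GTE2 footprints stood at 9.94 and 6.36 CPM in Col-0 at 22 °C and at 1.31 and 0.304 CPM, from 4 and 1 counts, at 37 °C. In fust1 they stood at 6.42 and 6.56 CPM at 22 °C and at 17.3 and 21.3 CPM at 37 °C. Heat thus lowered GTE2 footprints in both Col-0 libraries and raised them in both fust1 libraries. The lack of overlap was a condition of the ranking and adds no support. Genes named below for a small adjusted p were chosen by the contrast too, so separation of their libraries is a description only. The contrast was 4.94 ± 0.57 (log2, SE; adjusted p = 4.54e-06, with the fall in Col-0 at -3.36 and the rise in fust1 at 1.58). GTE2 RNA, in contrast, was 59.6 and 55.3 CPM in Col-0 and 54.1 and 52.5 CPM in fust1 at 22 °C, and at 37 °C it was 1026 and 1003 CPM in Col-0 and 825 and 1002 CPM in fust1. The RNA thus stood many times higher at 37 °C in all 4 heat libraries, and its heat by genotype contrast was -0.04 ± 0.29.

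DRH1, a DEAD-box RNA helicase, had 17.9 and 16.3 CPM in Col-0 at 22 °C and 1.31 and 1.22 CPM at 37 °C. In fust1 it had 13.0 and 13.8 CPM and then 10.9 and 10.1 CPM. The fitted heat change was -3.75 in Col-0 and -0.36 in fust1, and only the former passed the test (contrast 3.39 ± 0.46, adjusted p = 3.91e-05). Its RNA lay between 175 and 247 CPM in the 8 RNA libraries. A different pattern was seen for SVR3, a plastid GTPase related to bacterial translation factor TypA, whose footprints fell in both genotypes. SVR3 went from 171 and 122 CPM to 2.61 and 2.74 CPM in Col-0, and from 80.2 and 70.2 CPM to 15.1 and 12.6 CPM in fust1. The mutant started lower and ended higher, and the contrast was 3.32 ± 0.37 (adjusted p = 2.91e-06).

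AGY1, the plastid SecA protein translocase, behaved like SVR3: 96.6 and 79.2 CPM became 2.61 and 1.22 CPM in Col-0, and 44.6 and 34.7 CPM became 8.36 and 7.24 CPM in fust1. Its contrast was 3.18 ± 0.43 (adjusted p = 3.62e-05). TTA1, a protein with a plant homeodomain (PHD) finger, had a contrast of 3.37 ± 0.60 and AT2G46900 one of 3.78 ± 0.56, and AT5G58950 one of 3.29 ± 0.60. In HMG1, which encodes the sterol pathway enzyme HMG-CoA reductase, the contrast was 3.23 ± 0.65, but without Col-0 37 °C replicate 1 or replicate 2 the gene was no longer called (adjusted p up to 0.121). The Col-0 37 °C values behind these 4 genes lay between 0.326 and 2.13 CPM and rest on few reads. So do those of DRH1 (4 and 4 counts), SVR3 (8 and 9) and AGY1 (8 and 4).

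The smallest adjusted p-values among the genes called higher belonged to LBD41, SHV3 and NIA2, followed by AT1G74470 and SVR3 with equal values. SHV3, a membrane-anchored protein of the cell wall, had 112 and 103 CPM in Col-0 at 22 °C and 8.49 and 9.13 CPM at 37 °C, while fust1 had 79.2 and 86.02 CPM and then 37.2 and 37.3 CPM. The fall was -3.61 in the wild type and -1.15 in the mutant on the log2 scale (contrast 2.46 ± 0.25, adjusted p = 1.21e-06). AT1G74470 fell from 1449 and 975 CPM to 33.6 and 47.5 CPM in Col-0 and from 612 and 499 CPM to 99.2 and 112 CPM in fust1. Its contrast was 2.51 ± 0.26 (adjusted p = 2.91e-06). NIA2 is given with nitrogen metabolism and LBD41 with hypoxia genes.

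In 39 of the 1012 genes called higher, and in 865 of all 18445 genes tested, Col-0 at 37 °C had no count at all. Of the 593 genes called lower 0 had an empty group, beside 995 of all genes tested. For such genes the fold was computed with a floor of 3 counts over the empty group (0.472 CPM). The other group means were taken as measured, so these folds leave out their counting error and are no strict bounds. AT1G06900 had 32.7 and 33.3 CPM in Col-0 at 22 °C and 0 at 37 °C in both libraries, against 29.9 and 26.9 CPM and then 2.18 and 2.87 CPM in fust1. With the floor its heat ratio was 6.22-fold higher in fust1 (adjusted p = 0.0011), from 12 and 21 counts in fust1 at 37 °C. For FIP1[V], a subunit of the mRNA polyadenylation complex, the ratio was 3.94-fold higher (adjusted p = 0.00771), from 7 and 12 counts. For emb2458, an embryo-essential gene, it was 2.91-fold higher (adjusted p = 0.0213), from 5 and 11 counts. The emb2458 call was lost without either Col-0 37 °C library or without fust1 37 °C replicate 2.

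**Figure D2:**
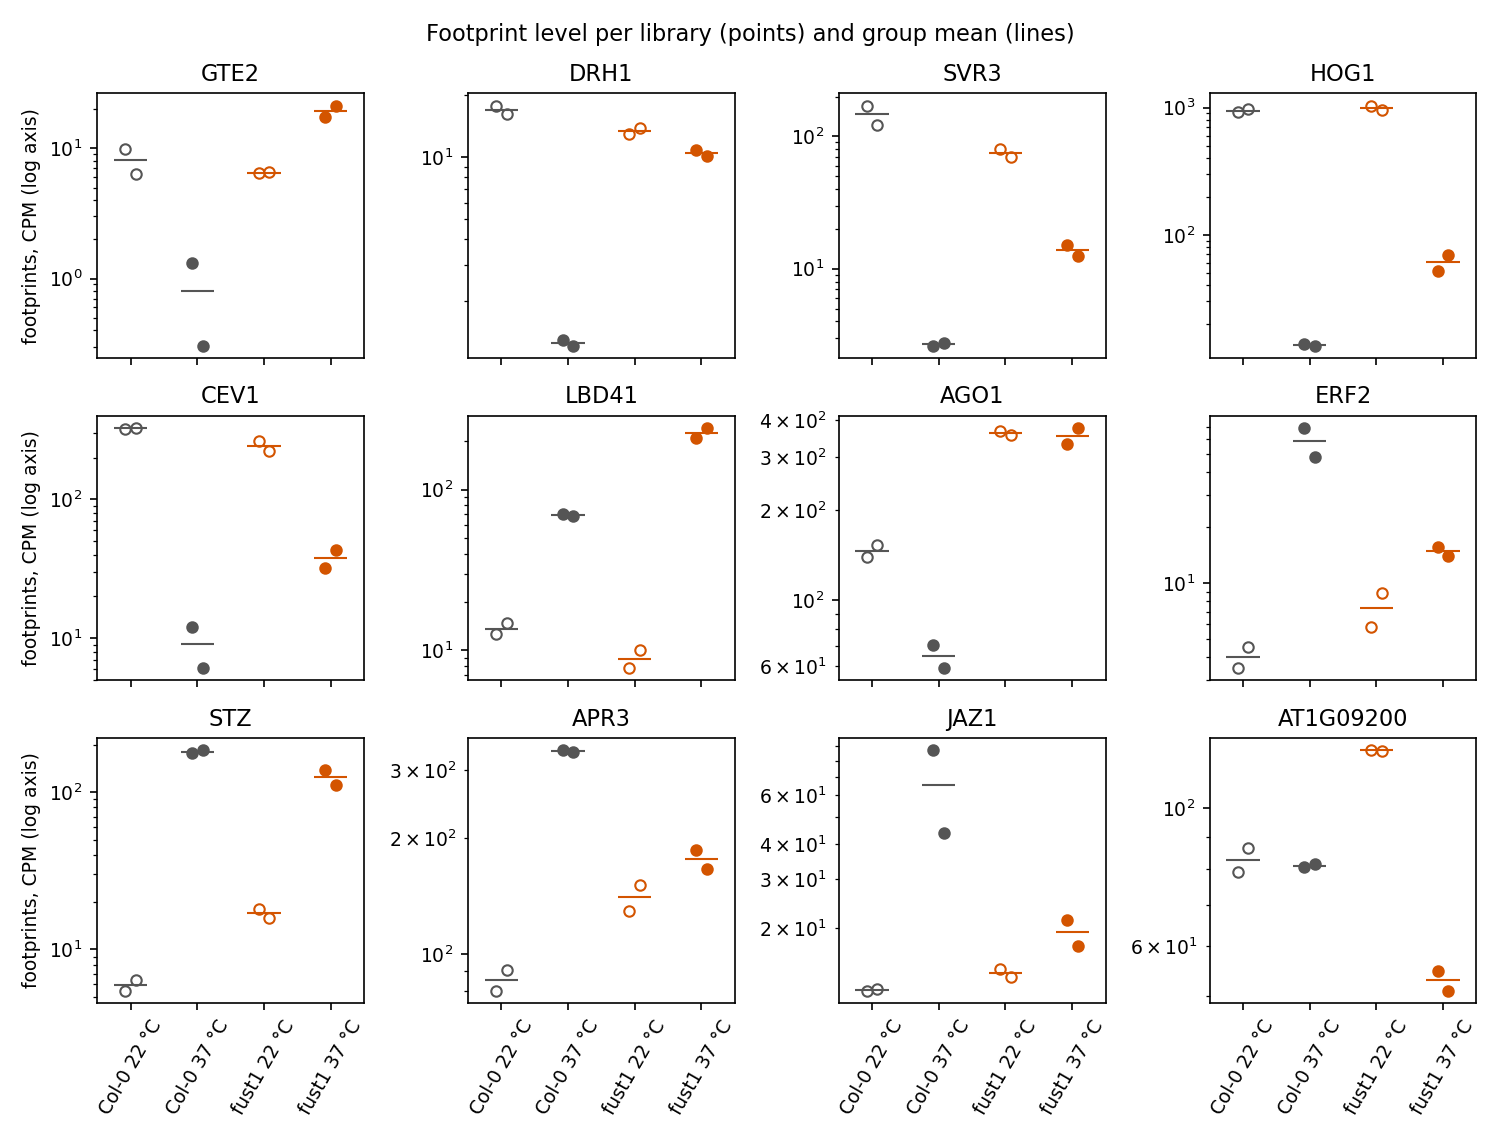
Footprints per library, in CPM on a log axis whose range differs between panels, for 12 genes (points, open at 22 °C and filled at 37 °C, grey for Col-0 and orange for fust1; lines are group means of 2 libraries). In GTE2, DRH1, SVR3, HOG1, CEV1, LBD41 and AGO1 the fust1 37 °C libraries lie above those of Col-0 at 37 °C, and in ERF2, STZ, APR3, JAZ1 and AT1G09200 they lie below them.

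Among called genes ranked under the same conditions, lack of overlap included, the lowest contrasts belonged mostly to genes that heat raised in Col-0. ERF2, ERF13 and ERF-1 are ethylene response factors, transcription factors active in stress and defence. ERF2 footprints rose from 3.48 and 4.55 CPM to 68.9 and 47.8 CPM in Col-0, and stood at 5.82 and 8.83 CPM and then 15.6 and 14.1 CPM in fust1. All 4 fust1 values lay between the Col-0 levels at 22 °C and at 37 °C, and the contrast was -2.86 ± 0.33 (adjusted p = 5.19e-06). In ERF13, 0.456 and 0.258 CPM became 36.2 and 15.5 CPM in Col-0, and 0.519 and 0.623 CPM became 5.63 and 5.19 CPM in fust1. The contrast was -2.89 ± 0.68 (adjusted p = 0.00791), and without Col-0 37 °C replicate 1 it was -2.11 and not called (adjusted p = 0.079). ERF-1 had a contrast of -1.66 ± 0.25, and AT5G51190, which rose in both genotypes, one of -2.34 ± 0.38.

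AT3G50800 had the lowest contrast of these genes, at -3.59 ± 0.65 (adjusted p = 0.000816). It stood at 0.539 and 0.517 CPM and then 10.4 and 9.74 CPM in Col-0, and at 1.32 and 1.61 CPM and then 1.45 and 3.01 CPM in fust1. The rise with heat passed the test in Col-0 (4.23) and not in fust1 (0.65). STZ, a zinc finger repressor also called ZAT10, rose in both genotypes. Its footprints went from 5.47 and 6.36 CPM to 177 and 185 CPM in Col-0, and from 17.99 and 15.9 CPM to 139 and 111 CPM in fust1. The mutant was higher at 22 °C and lower at 37 °C, with a contrast of -2.06 ± 0.22 (adjusted p = 2.91e-06).

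CAF1a, a deadenylase that shortens poly(A) tails, went another way. It stood at 9.94 and 14.8 CPM and then 14 and 10.3 CPM in Col-0 and fell in fust1 from 23.8 and 21 CPM to 5.81 and 3.42 CPM. The contrast was -2.30 ± 0.39 (adjusted p = 0.000459). AT4G27280 rose in both genotypes with a contrast of -2.25 ± 0.33, and AT5G21940 did so with -1.94 ± 0.22. For RTFL12, a small peptide of the ROTUNDIFOLIA-like family, the contrast was -2.42 ± 0.56, and it was not called without Col-0 22 °C replicate 1, Col-0 37 °C replicate 1 or fust1 22 °C replicate 2 (adjusted p up to 0.101).

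Heat raised 8 of the 9 core heat genes far above their 22 °C level in both genotypes, and BIP3 was the exception. Of the 9 genes 1 was called, as lower, beside 5.49 % higher and 3.21 % lower among all genes tested. So few genes do not set the group apart. HSP101, the disaggregase on which acquired heat tolerance depends, stood at 15.2 and 6.51 CPM in Col-0 and 17.3 and 20.4 CPM in fust1 at 22 °C. At 37 °C it stood at 107236 and 89439 CPM in Col-0 and at 80186 and 75143 CPM in fust1. The Col-0 replicates at 22 °C differed by more than the genotypes did at 37 °C. Its contrast of -1.13 ± 0.35 was not called (adjusted p = 0.0523), and it was -1.87 without Col-0 22 °C replicate 1. HSP101 was called under 6 of 17 alternative settings. MBF1C, a transcriptional coactivator of heat tolerance, was the gene called, at -0.79 ± 0.25 (adjusted p = 0.0447). The MBF1C call was kept under 8 of 17 alternative settings and lost under 9. It was lost with RLE scaling, library totals or thinned libraries, and without any 1 of 6 of the 8 libraries. HSP101 and MBF1C thus both lay near the threshold.

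The other core heat genes were not called, which does not show that they responded alike. HSFA2, the heat-induced heat shock factor, had a contrast of -0.34 ± 0.59, with 4301 and 3634 CPM in Col-0 and 4200.1 and 3340.3 CPM in fust1 at 37 °C. HSP70 (-0.57 ± 0.26), HSP90.1 (-0.60 ± 0.26), HSP21 (-1.13 ± 0.53), DREB2A (-0.60 ± 0.27), APX2 (-2.13 ± 0.99) and the ER chaperone gene BIP3 (-0.78 ± 0.73) had negative values too. At 22 °C APX2 had 1 and 0 counts in Col-0 and 5 and 2 in fust1, and HSP21 had 18 and 1 in Col-0. At 37 °C fust1 differed from Col-0 by 0.04 in APX2 and by -0.09 in HSP21. With 1 library left out the HSP21 contrast ranged from -3.98 to -0.35. None of 17 tested heat shock factors was called, and their median contrast was 0.11, beside 0.08 for all genes. Among 17 small heat shock protein genes 0 were called higher (beside 5.49 % of all genes tested) and 2 lower (11.8 %, beside 3.21 %). The 2 were AT1G54050 (-1.39 ± 0.35) and AT5G51440 (-0.98 ± 0.26). The median contrast of this list was -0.91, with a median genotype difference of 0.69 at 22 °C and -0.16 at 37 °C. The count depended on single libraries: without Col-0 22 °C replicate 1, 14 members were called lower, and without Col-0 22 °C replicate 2, Col-0 37 °C replicate 1 or fust1 22 °C replicate 2, 0 were. As shares of all footprints, small heat shock proteins made up 18.4 and 17.8 % in Col-0 and 18.6 and 17.6 % in fust1 at 37 °C, values that overlap.

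Of 36 larger chaperones and co-chaperones tested, 6 were called higher (16.7 %, beside 5.49 % of all genes tested) and 4 lower (11.1 %, beside 3.21 %), or 7 lower with upper-quartile scaling or DESeq2. CPN60B, CPN60A and Cpn60beta2 (0.76), subunits of the plastid chaperonin, and the plastid HSP70 and HSP90 genes cpHsc70-2 (0.68) and CR88 (0.88) were among the higher ones, with J3 as the last. CPN60B fell from 157 and 153 CPM to 6.20 and 8.82 CPM in Col-0 and from 133 and 129 CPM to 24.3 and 25.1 CPM in fust1. Its contrast was 1.95 ± 0.26 (adjusted p = 3.62e-05), and that of CPN60A was 1.17 ± 0.19 (adjusted p = 0.000254). J3, a cytosolic HSP40 co-chaperone, rose with heat from 105 and 97.5 CPM to 269 and 419 CPM in Col-0, and from 104 and 106 CPM to 832 and 1059 CPM in fust1. The heated mutant libraries held more J3 footprints than either heated wild-type library (contrast 1.41 ± 0.23, adjusted p = 0.000401). Hsp70-2 (-0.92), the HSP90 gene HSP81-3 (-0.79), the HSP70 co-chaperone Fes1A (-0.83) and AT3G09440 (-0.82) were called lower. Without fust1 37 °C replicate 2 or Col-0 37 °C replicate 1, 1 member of the list was called lower. BZIP28, a membrane-tethered transcription factor of the ER stress response, had a contrast of 0.94 ± 0.24. It was not called without Col-0 22 °C replicate 1, Col-0 37 °C replicate 1 or fust1 22 °C replicate 1 (adjusted p up to 0.091).

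Ribosomal proteins are encoded by several near-identical copies each, so counts of single copies may be split between copies. Of 86 genes of the small subunit 31 (36.0 %) were called lower and 0 higher, and of 117 genes of the large subunit 17 (14.5 %) were called lower and 3 higher, beside 3.21 % lower and 5.49 % higher among all genes tested. Their median contrasts were -0.57 and -0.34. AT5G59850, a small subunit gene, had 76.4 and 87.6 CPM and then 188 and 158 CPM in Col-0, and 161 and 138 CPM and then 127 and 154 CPM in fust1. Footprints rose with heat in the wild type (1.08), and the change in the mutant (-0.09) did not pass the test (contrast -1.16 ± 0.21, adjusted p = 0.000697). AT5G18380 (-1.17 ± 0.22) and AT5G52650 (-1.02 ± 0.19) of the small subunit and AT4G25890 (-1.14 ± 0.23) and AT3G06680 (-1.38 ± 0.30) of the large subunit were called as well.

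By the list medians the contrast of the ribosomal proteins lay at 22 °C, where fust1 stood above Col-0. The median difference of fust1 from Col-0 was 0.62 at 22 °C and 0.06 at 37 °C for the small subunit list. It was 0.57 and 0.26 for the large subunit list, and -0.03 and 0.06 for all genes tested. Neither list median showed fust1 below Col-0 at 37 °C. As shares of all footprints, small subunit genes made up 0.903 and 0.964 % in Col-0 at 22 °C and 1.45 and 1.46 % in fust1, with no overlap, but 0.473 and 0.494 % against 0.490 and 0.618 % at 37 °C. The RNA contrast of the same 86 genes had a median of 0.70, beside 0.02 for all genes tested in RNA, and the median contrast of footprints per RNA was -1.23, beside 0.17. With 1 library left out, 10 to 32 of the small subunit genes were called lower, the fewest without Col-0 37 °C replicate 1 (10), Col-0 22 °C replicate 1 (13) and fust1 22 °C replicate 1 (18). For the large subunit 3 to 19 were called, with 3 and 5 without the first replicate of Col-0 at 22 °C and at 37 °C, 6 without fust1 22 °C replicate 1, 7 without fust1 37 °C replicate 1, 9 without fust1 22 °C replicate 2 and 11 without Col-0 22 °C replicate 2, and those called higher ranged from 0 to 6. With library totals as scaling 19 and 5 were called lower.

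Of 29 tested initiation factors other than eIF3, 3 (10.3 %) were called higher and 3 (10.3 %) lower, and of 18 eIF3 subunits 2 (11.1 %) were higher and 1 (5.56 %) lower, where all genes tested had 5.49 % and 3.21 %. These are few genes, and with library totals 0 initiation factors were called lower. eIFiso4G1, a plant scaffold of the cap-binding complex, had 100 and 103 CPM and then 2.94 and 5.48 CPM in Col-0, and 93.4 and 86.3 CPM and then 9.99 and 14.2 CPM in fust1. Its footprints fell far in both genotypes, less so in the mutant, with a contrast of 1.71 ± 0.34 (adjusted p = 0.00201). Its relative eIFiso4G2 was called in the other direction, at -0.83. AT3G02200, an eIF3 subunit, had a contrast of 1.83 ± 0.34, EIF3E one of 1.19 ± 0.27, and AT4G20980 of the same complex one of -1.15 ± 0.22. AT1G36730, on the initiation factor list, rose from 32.3 and 36.6 CPM to 70.2 and 72.7 CPM in Col-0 and from 26.4 and 26.7 CPM to 139 and 139 CPM in fust1. Its heat change was larger in the mutant by 1.33 ± 0.21 (adjusted p = 0.000138). The list of initiation factors had 0 members called lower without Col-0 22 °C replicate 1, Col-0 37 °C replicate 1 or fust1 22 °C replicate 1, and 1 without fust1 22 °C replicate 2. Of the eIF3 subunits 5 were called higher without Col-0 37 °C replicate 2 and 4 without fust1 37 °C replicate 1, and their median of 0.01 was 0.13 with library totals and -0.04 with upper-quartile scaling.

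Among proteins of stress granules, the bodies that collect untranslated mRNA in heat, 5 of 27 were called higher (18.5 %, beside 5.49 % of all genes) and 1 lower (3.70 %, beside 3.21 %). ECT2, a reader of N6-methyladenosine in mRNA, fell from 94.1 and 68.4 CPM to 3.26 and 3.35 CPM in Col-0 and from 63.3 and 61 CPM to 12 and 15.3 CPM in fust1. The contrast was 2.44 ± 0.36 (adjusted p = 7.8e-05), and both heated mutant libraries lay above both heated wild-type ones. Without 1 library 1 to 5 members of this list were called higher, the fewest without Col-0 22 °C replicate 1 (1), with 2 without Col-0 37 °C replicate 1, either fust1 22 °C library or fust1 37 °C replicate 2 and 3 without Col-0 37 °C replicate 2. The count called lower was 0 without Col-0 22 °C replicate 1, Col-0 37 °C replicate 1 or fust1 22 °C replicate 1. SR proteins, which guide splicing, had 1 member called higher (5.56 %) and 4 lower (22.2 %) of 18. RSZ22a rose with heat in both genotypes, to 141 and 115 CPM in Col-0 and to 81.4 and 91.9 CPM in fust1, from 28.7 and 31.3 CPM and from 41 and 42.3 CPM (contrast -1.03 ± 0.21, adjusted p = 0.00244). With 1 library left out 1 to 4 SR genes were called lower, with 1 without the first replicate of either genotype at 22 °C and 2 without either Col-0 37 °C library.

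AGO1, the effector of microRNA silencing, had 139 and 153 CPM in Col-0 at 22 °C and 70.8 and 59 CPM at 37 °C. In fust1 it had 369 and 356 CPM and then 332 and 377 CPM. The mutant stood above the wild type at both temperatures, by 1.32 at 22 °C and 2.45 at 37 °C on the log2 scale. Heat lowered AGO1 footprints in Col-0 (-1.17), the change in fust1 (-0.03) did not pass the test, and the contrast was 1.14 ± 0.20 (adjusted p = 0.000603). Its RNA contrast was -0.28 ± 0.31. SQN, which acts with AGO1, also had a called contrast, of 3.92 ± 1.14 (adjusted p = 0.0294), but it rests on 0, 1, 3 and 9 counts in the fust1 libraries. That call was lost without Col-0 22 °C replicate 1, Col-0 37 °C replicate 1, either fust1 22 °C library or fust1 37 °C replicate 2 (adjusted p up to 0.206).

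**Figure D3:**
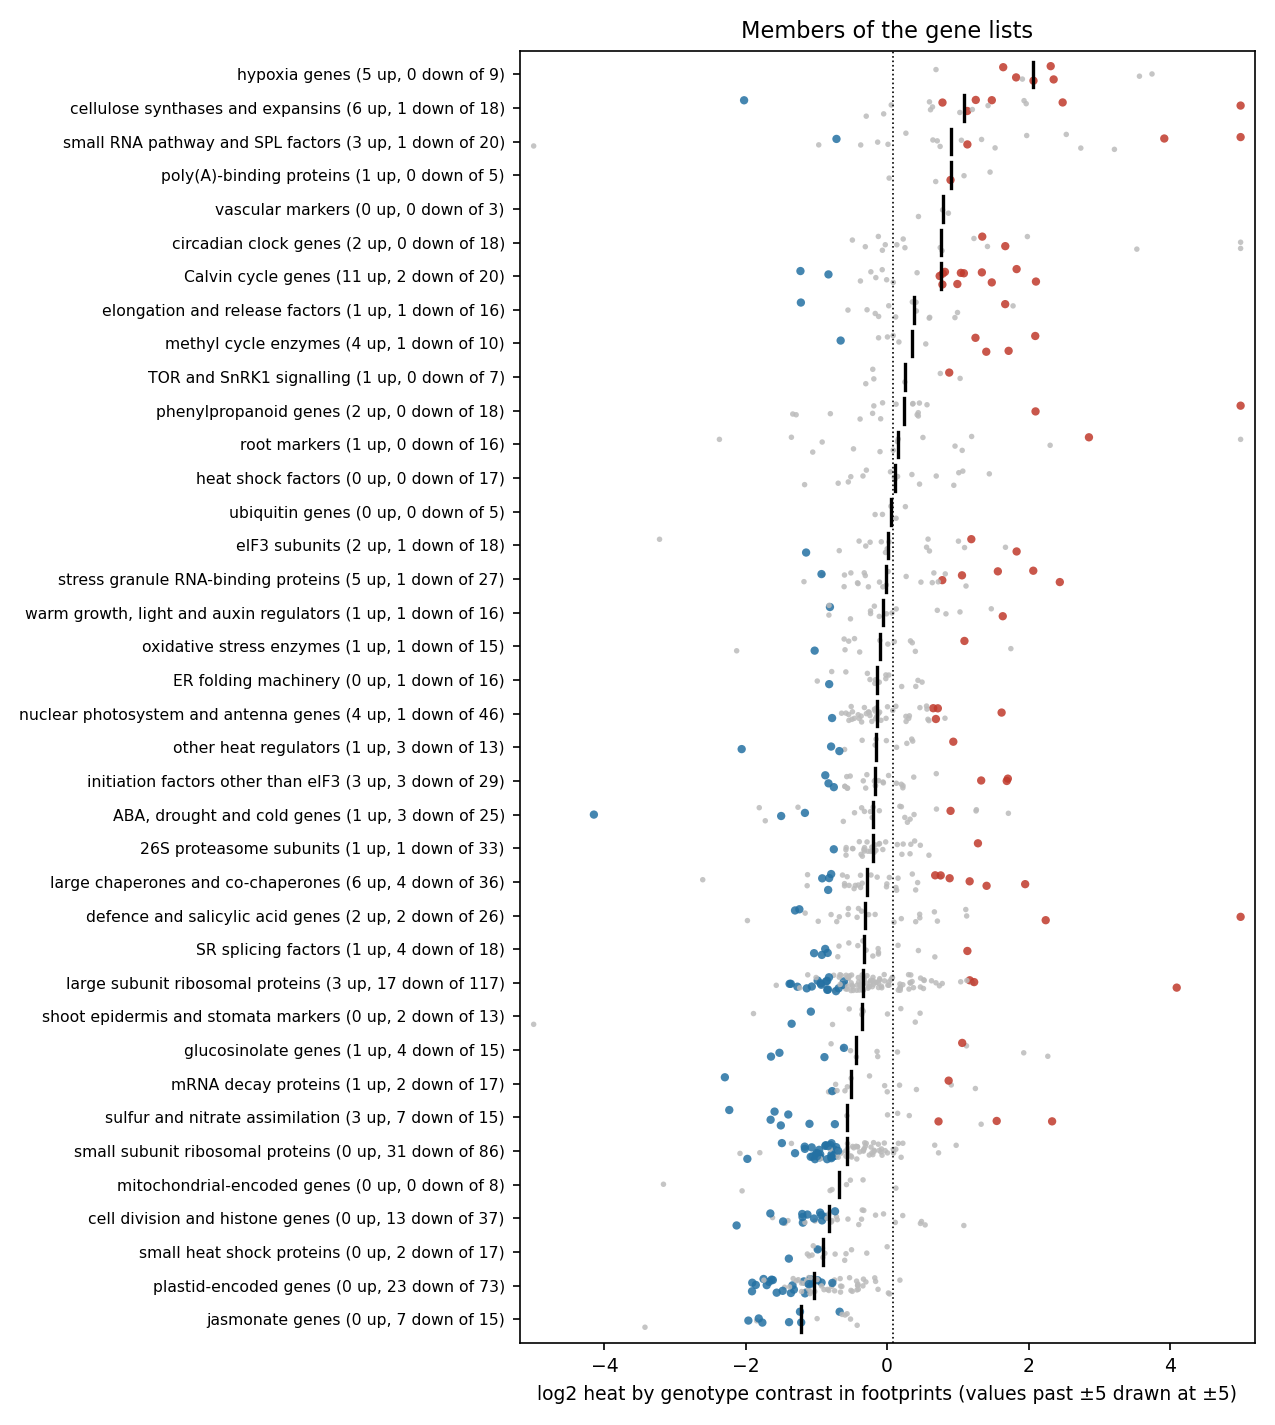
The log2 heat by genotype contrast of each tested member of 38 gene lists, red where called higher in fust1, blue where called lower and grey where not called, with the list median as a black bar and the median of all genes, 0.08, as a dotted line; 9 members past ±5 are drawn at the axis limit. Jasmonate, plastid-encoded and small heat shock protein genes have the lowest medians, at -1.22, -1.04 and -0.91, and hypoxia genes the highest, at 2.07.

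Of 20 genes of the Calvin cycle, which fixes carbon dioxide in the plastid, 11 (55 %) were called higher and 2 (10 %) lower. All genes tested had 5.49 % and 3.21 %, and the median contrast of the list was 0.76. CP12-1, a regulator of the cycle, fell from 891 and 692 CPM to 14.4 and 26.2 CPM in Col-0 and from 629 and 523 CPM to 53.2 and 73.9 CPM in fust1. Both heated mutant libraries held more of these footprints than either heated wild-type library (contrast 2.11 ± 0.30, adjusted p = 0.000189). CP12-1 was named for its small adjusted p, so this separation adds no support. GAPA, glyceraldehyde 3-phosphate dehydrogenase, went from 858 and 820 CPM to 75.1 and 93.7 CPM in Col-0 and from 636 and 512 CPM to 157 and 165 CPM in fust1. The GAPA contrast was 1.48 ± 0.21 (adjusted p = 4.73e-05), and that of TIM, the plastid triose phosphate isomerase, was 1.83 ± 0.30. RBCS1B (-1.23) and RBCS2B (-0.83), small subunits of Rubisco with close copies, were the 2 called lower. The count called lower was 0 without Col-0 37 °C replicate 1 and 1 without any of 5 other libraries. Without Col-0 22 °C replicate 1, Col-0 37 °C replicate 1 or fust1 22 °C replicate 2 the list had 6, 7 and 7 members called higher. The RNA contrast of the 20 genes had a median of -0.15.

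Of 46 nuclear photosystem and antenna genes 4 were called higher (8.70 %, beside 5.49 % of all genes) and 1 lower (2.17 %, beside 3.21 %), with a median of -0.15. With 1 library left out 1 to 6 were called higher, the fewest without Col-0 22 °C replicate 1 (1), fust1 22 °C replicate 2 (1) and Col-0 37 °C replicate 1 (2), and with library totals 8 were. LHCA4, an antenna protein of photosystem I, had the smallest adjusted p of the list and went from 4432 and 3493 CPM to 2189.8 and 2372 CPM in Col-0 and from 2279 and 1764 CPM to 3992 and 3157 CPM in fust1. Heat thus lowered its footprints in the wild type and raised them in the mutant (contrast 1.62 ± 0.23, adjusted p = 5.3e-05). Its RNA contrast was -0.18. Of genes encoded in the plastid itself, 23 of 73 (31.5 %) were called lower and 0 higher, with a median of -1.04.

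In the plastid-encoded group, ATCG00070 had 165 and 177 CPM and then 83.2 and 137 CPM in Col-0, and 235 and 172 CPM and then 52.5 and 52.9 CPM in fust1. The heated mutant libraries were the lowest of the 8 (contrast -1.32 ± 0.26, adjusted p = 0.00259). ATCG01100 had a contrast of -1.62 ± 0.32 (adjusted p = 0.00171). The summed plastid-encoded genes made up 4.88 and 5.35 % of footprints in Col-0 at 22 °C and 6.298 and 4.203 % in fust1, and at 37 °C 1.304 and 1.502 % in Col-0 and 0.946 and 0.789 % in fust1. The groups thus overlapped at 22 °C and did not at 37 °C. The count called lower was 9 without Col-0 37 °C replicate 2, 11 without fust1 22 °C replicate 1 or without fust1 37 °C replicate 2, 13 without Col-0 22 °C replicate 1, 15 without Col-0 37 °C replicate 1 and 38 without fust1 22 °C replicate 2. Of 8 tested mitochondrial genes 0 were called, beside 5.49 % higher and 3.21 % lower among all genes tested. So few genes do not set this list apart.

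Enzymes of the methyl cycle, which regenerates the methyl donor S-adenosylmethionine, had 4 members called higher and 1 lower of 10, and the 1 lower was lost without any of 6 of the 8 libraries. The members called higher and lower were 40 % and 10 % of the list, beside 5.49 % and 3.21 % of all genes tested. HOG1, S-adenosylhomocysteine hydrolase, fell from 928 and 969 CPM to 13.7 and 13.4 CPM in Col-0 and from 1039 and 962 CPM to 52 and 69.8 CPM in fust1. The 22 °C levels of the genotypes overlapped and the 37 °C levels were well apart (contrast 2.10 ± 0.24, adjusted p = 4.98e-06). SAM1, a S-adenosylmethionine synthetase, had a contrast of 1.72 ± 0.26, and ATMS1, a methionine synthase, one of 1.40 ± 0.26. HOG1 RNA at 37 °C was 988 and 725 CPM in Col-0 and 1362 and 1158 CPM in fust1, with an RNA contrast of 0.75 ± 0.34 that was not called.

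Cellulose synthases and expansins, which build and loosen the wall, had 6 called higher (33.3 %) and 1 lower (5.56 %) of 18. All genes tested had 5.49 % and 3.21 %. CEV1, the cellulose synthase subunit CESA3, fell from 322 and 327 CPM to 12.1 and 6.09 CPM in Col-0 and from 263 and 224 CPM to 31.97 and 43.2 CPM in fust1. The contrast was 2.48 ± 0.29 (adjusted p = 5.19e-06), and CESA1, a subunit of the same enzyme complex, had 1.25 ± 0.22 (adjusted p = 0.000583). EXPA15, an expansin, was the 1 called lower, at -2.02 ± 0.36, falling to 4.36 and 3.55 CPM in heated fust1 from 38.6 and 36.4 CPM. ATR2 and ATR1, the reductases that feed electrons to cytochrome P450 enzymes, were the 2 called higher (11.1 %) of 18 phenylpropanoid genes. ATR2 went from 111 and 89.1 CPM to 13.7 and 15.8 CPM in Col-0 and from 76 and 74.4 CPM to 39.2 and 55.3 CPM in fust1 (contrast 2.10 ± 0.26, adjusted p = 1.41e-05).

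Of 15 sulfur and nitrate assimilation genes 7 (46.7 %) were called lower and 3 (20 %) higher, beside 3.21 % and 5.49 % of all genes tested. APR3, a reductase of sulfate assimilation, rose from 80.2 and 90.5 CPM to 339 and 334 CPM in Col-0 and stood at 129 and 151 CPM and then 186 and 166 CPM in fust1. Heat raised it by 1.98 in the wild type and by 0.33 in the mutant on the log2 scale (contrast -1.65 ± 0.19, adjusted p = 5.19e-06). Its relatives APR1 (-1.504 ± 0.21) and APR2 (-1.10), the sulfur deficiency genes LSU1 (-1.40), LSU2 (-1.59) and ATSDI1 (-2.23), and the nitrate transporter NRT1.1 (-0.74) were also called lower. LSU3, which is not on the list, had -2.41 ± 0.47. The 3 called higher belong to nitrate reduction: the nitrate reductases NIA2 and NIA1 (0.73) and the nitrite reductase NIR1 (1.55). NIA2 fell from 271 and 225 CPM to 15.02 and 18.3 CPM in Col-0 and from 145 and 120 CPM to 45.1 and 44.7 CPM in fust1 (contrast 2.33 ± 0.24, adjusted p = 1.21e-06). Without 1 library 6 or 7 of the list were called lower and 2 or 3 higher, with 2 higher without Col-0 22 °C replicate 1, Col-0 37 °C replicate 2 or fust1 22 °C replicate 1. The RNA contrast of the list had a median of -1.55. Among 15 glucosinolate genes 4 (26.7 %) were lower and 1 (6.67 %) higher. CYP79B2, the entry enzyme of indole glucosinolates, had -1.52 ± 0.22 (adjusted p = 5.34e-05).

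Jasmonate genes, which act in wound and defence signalling, had 7 members called lower (46.7 %) and 0 higher of 15. All genes tested had 3.21 % lower and 5.49 % higher. All 15 values of the list were negative, with a median of -1.22. JAZ1, a repressor of the pathway that its own hormone induces, rose from 11.9 and 12.1 CPM to 87.2 and 43.8 CPM in Col-0 and stood at 14.2 and 13.4 CPM and then 21.4 and 17.2 CPM in fust1. The heated mutant libraries reached less than either heated wild-type library (contrast -1.96 ± 0.32, adjusted p = 0.000391). VSP2, a storage protein induced by jasmonate, had -1.76 ± 0.24, JAZ6 -1.82 ± 0.29, the transcription factor MYC2 -1.39, and the biosynthetic enzymes AOS and OPR3 -1.23 and -1.22. The RNA contrast of the list had a median of -1.12 and that of JAZ1 RNA was -2.87 ± 0.42 (adjusted p = 0.0503). With 1 library left out 5 to 7 members were called lower.

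Hypoxia genes, induced when oxygen is short, had 5 called higher (55.6 %, beside 5.49 % of all genes tested) and 0 lower of 9. Their median was 2.07. As with every list here, the members were chosen with earlier results of these data known, so the counts and medians are a description only. LBD41, a transcription factor, rose from 12.6 and 14.7 CPM to 70.2 and 68.8 CPM in Col-0 and from 7.74 and 10 CPM to 208 and 242 CPM in fust1. The mutant stood lower at 22 °C and higher at 37 °C (contrast 2.31 ± 0.23, adjusted p = 1.21e-06). AT4G33070 had 1.82 ± 0.24, the sucrose synthase SUS4 1.64 ± 0.25 and the alcohol dehydrogenase ADH1 2.36. The RNA contrast of the 9 genes had a median of 4.04 and none was called in RNA. LBD41 RNA replicates were far apart, at 5.91 and 10.2 CPM and then 10.2 and 1.54 CPM in Col-0, and 5.85 and 18.4 CPM and then 59.3 and 59.2 CPM in fust1. With 1 library left out 4 to 7 members were called higher.

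LTI78, a drought and cold gene also called RD29A, had 72.6 and 84 CPM and then 173 and 138 CPM in Col-0, and 84.2 and 96 CPM and then 85.9 and 74.3 CPM in fust1. Its heat change of 0.99 in Col-0 passed the test and that of -0.17 in fust1 did not, and the contrast was -1.16 ± 0.21 (adjusted p = 0.000816). WRKY70, a defence transcription factor, rose to 291 and 294 CPM in Col-0 and 160 and 128 CPM in fust1 (contrast -1.24 ± 0.23, adjusted p = 0.00108). PIF4, the transcription factor of warm growth, had 23.4 and 16.3 CPM and then 16 and 17.6 CPM in Col-0, and 11.6 and 11.8 CPM and then 32.3 and 29.2 CPM in fust1. The mutant was lower than the wild type at 22 °C and higher at 37 °C (contrast 1.64 ± 0.29, adjusted p = 0.000754). PRR7, a clock repressor, had a contrast of 1.67 ± 0.29 (adjusted p = 0.000464).

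Genes of cell division and histones were called lower in 13 (35.1 %) and higher in 0 of 37 cases, with a median of -0.82. All genes tested had 3.21 % lower and 5.49 % higher. AT1G09200, from a histone family of near-identical copies, had 78.9 and 86.2 CPM and then 80.3 and 81.2 CPM in Col-0, and 124 and 124 CPM and then 54.9 and 51 CPM in fust1. The heat change was -0.03 in the wild type, short of the test, while the mutant fell by 1.23; the mutant was above it at 22 °C and below it at 37 °C (contrast -1.20 ± 0.20, adjusted p = 0.000339). TSO2, a ribonucleotide reductase subunit needed for DNA synthesis, rose from 59.3 and 76.5 CPM to 170 and 184 CPM in Col-0 and stood at 109 and 107 CPM and then 116 and 141 CPM in fust1 (contrast -1.13 ± 0.21, adjusted p = 0.00102). CDC20.1, an activator of the anaphase-promoting complex, had -2.13, and the replication genes MCM3, MCM5 and PCNA2 had -0.93, -0.92 and -0.87. The RNA contrast of the list had the opposite sign, with a median of 0.57. The count called lower was 4 without Col-0 22 °C replicate 1, 5 without Col-0 37 °C replicate 1, 7 without fust1 22 °C replicate 1 and 5 with library totals as scaling.

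The remaining lists held few calls, to be read beside 5.49 % higher and 3.21 % lower among all genes tested. mRNA decay proteins had 1 called higher (5.88 %), the decapping activator DCP5 (0.87), and 2 lower (11.8 %) of 17. The DCP5 call was lost without Col-0 22 °C replicate 1, Col-0 37 °C replicate 2 or either fust1 22 °C library (adjusted p up to 0.148). Of 16 elongation and release factors eEF-1Bb1 (1.67) was called higher and AT1G07920 (-1.22) lower. PAB2 (0.90 ± 0.21), a poly(A)-binding protein, was the 1 called of 5, and KIN10 (0.88), a subunit of the energy sensor kinase SnRK1, the 1 called of 7 in its list. Oxidative stress enzymes had 1 higher, the catalase CAT3 (1.09), and 1 lower, the superoxide dismutase FSD2 (-1.03), of 15. Drought and cold genes had 1 higher and 3 lower of 25, and defence genes 2 and 2 of 26. RPT5A (1.28 ± 0.24), an ATPase of the proteasome cap, was called higher and PBG1 (-0.75), a core subunit, lower of 33. ER folding genes had 0 higher and 1 lower of 16, and heat regulators other than heat shock factors 1 and 3 of 13. Of the latter 1 was called lower without Col-0 22 °C replicate 1, either Col-0 37 °C library, fust1 22 °C replicate 1 or fust1 37 °C replicate 2, and with library totals. Small RNA genes had 3 higher (15 %) and 1 lower (5 %) of 20, with 1 higher without Col-0 22 °C replicate 1, Col-0 37 °C replicate 1 or either fust1 22 °C library. Warm growth regulators had 1 (6.25 %) and 1 of 16, the lower being the ubiquitin ligase COP1 (-0.81). Clock genes had 2 higher of 18, with a median of 0.76. None of 5 ubiquitin and 3 vascular marker genes was called. Of 16 tested root markers 1 was called higher, and of 13 epidermis markers 2 were lower, PDF1 (-1.35) and TMM (-1.08). Neither was called without Col-0 37 °C replicate 1 or fust1 22 °C replicate 1, nor TMM without Col-0 22 °C replicate 1 (adjusted p up to 0.122 and 0.121). With single libraries left out the call of KIN10 was lost in 6 of 8 cases (adjusted p up to 0.137), and that of COP1 in 6 of 8 (adjusted p up to 0.164). The calls of AT1G07920 and eEF-1Bb1 were lost without Col-0 37 °C replicate 2, those of AT1G07920, PAB2, FSD2 and PBG1 without Col-0 22 °C replicate 1, and those of CAT3, FSD2 and PBG1 without Col-0 37 °C replicate 1 (adjusted p up to 0.101).

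Of 19340 genes tested in RNA the same contrast was called higher for 0 (0 %) and lower for 6 (0.0310 %), while 704 and 1099 had an unadjusted p below 0.05. The 6 were ERF-1, SHM7, OPCL1, WRKY33, LSU1 and ERF2, with RNA contrasts from -3.62 to -2.71. ERF2 RNA was 5.37 and 5.28 CPM and then 13.8 and 16.1 CPM in Col-0, and 36.2 and 24.3 CPM and then 9.598 and 4.204 CPM in fust1. Both heated Col-0 RNA libraries lay above those at 22 °C, and both heated fust1 ones lay below. WRKY33, with an RNA contrast of -2.71, had a footprint contrast of -0.17 ± 0.36. The RNA count depended on several single libraries and rose most without Col-0 37 °C replicate 1 of the RNA-seq. None of the 6 calls was kept without either Col-0 22 °C RNA-seq library, fust1 22 °C replicate 1 or fust1 37 °C replicate 2. DESeq2 called 18 and 168.

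Of the genes called higher in footprints, 1009 had an RNA value. Of these 1009, 495 (49.1 %) had a positive RNA contrast, beside 50.6 % of all genes tested in both, and their median RNA contrast was -0.01. The genes called lower had an RNA interquartile range from -0.77 to 0.44, beside -0.39 to 0.43 for all genes, with a median of -0.10 and 270 of 585 (46.2 %) positive. Of these 585, 115 had a negative RNA contrast at an unadjusted p under 0.05 and 26 a positive one, beside 1062 and 662 of all genes. These RNA values come from other libraries than the footprints.

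**Figure D4:**
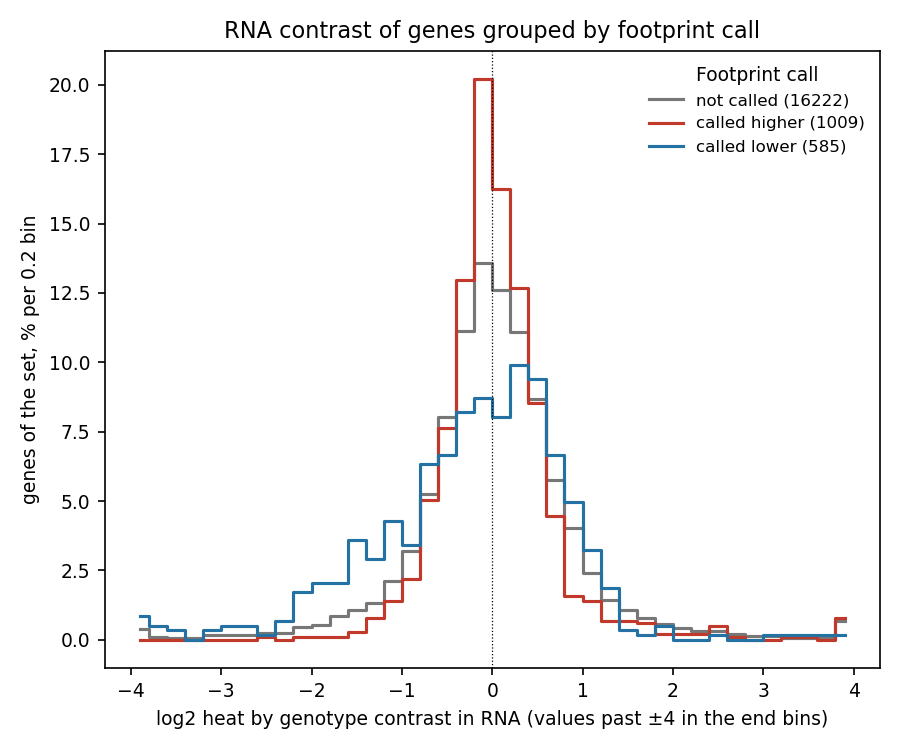
Distribution of the log2 heat by genotype contrast in RNA for genes called higher in footprints (1009 with an RNA value), called lower (585) and not called (16222), as the percentage of each set per bin of 0.2. The called higher genes centre on 0 (median -0.01), and the called lower genes have a median of -0.10 and a longer tail on the left.

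Footprints per unit of RNA (translation efficiency, TE), tested as assay by heat by genotype over all 16 libraries, gave 172 genes called higher (0.965 %) and 23 lower (0.129 %) of 17816. These share the footprint libraries with the contrast above and are given beside it, not as separate evidence. DRH1 had a TE contrast of 3.53 ± 0.41 (adjusted p = 0.0014), GTE2 4.98 ± 0.60, ATR2 2.95, CEV1 3.06, PIF4 2.26 and PRR7 1.78. AT1G09200 had -2.06 and AT5G10400, another member of the histone list, -2.21. CBP60G, a calmodulin-binding regulator of salicylic acid synthesis, had a TE contrast of 4.65 and a footprint contrast of 2.24 ± 0.55, with 11.4 and 11.4 CPM and then 0.653 and 2.13 CPM in Col-0 and 8.81 and 8.72 CPM and then 4.36 and 5.87 CPM in fust1. Its footprint call was lost without Col-0 37 °C replicate 1 (adjusted p = 0.0842). The TE counts ranged from 22 to 819 higher and 1 to 626 lower with 1 library left out. The highest counts came without Col-0 37 °C RNA-seq replicate 1 (819 and 626) and without fust1 22 °C RNA-seq replicate 2 (433 and 107). The lowest came without the first Ribo-seq replicate of Col-0 at 37 °C (22 and 1).

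The share of genes called grew with their footprint level. In 5 bins of 3689 genes ranked by mean level, the share called higher was 0.705, 3.25, 5.04, 8.21 and 10.2 % from the lowest to the highest bin. The share called lower was 0.325, 0.867, 1.90, 4.17 and 8.81 %. The median count per Col-0 37 °C library was 1.5 in the lowest bin and 238 in the highest, and the part of depth in this trend was not tested. On chromosome 1 lay 27.1 % of the genes called higher and 23.3 % of those called lower, beside 26.1 % of all tested.

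**Figure D5:**
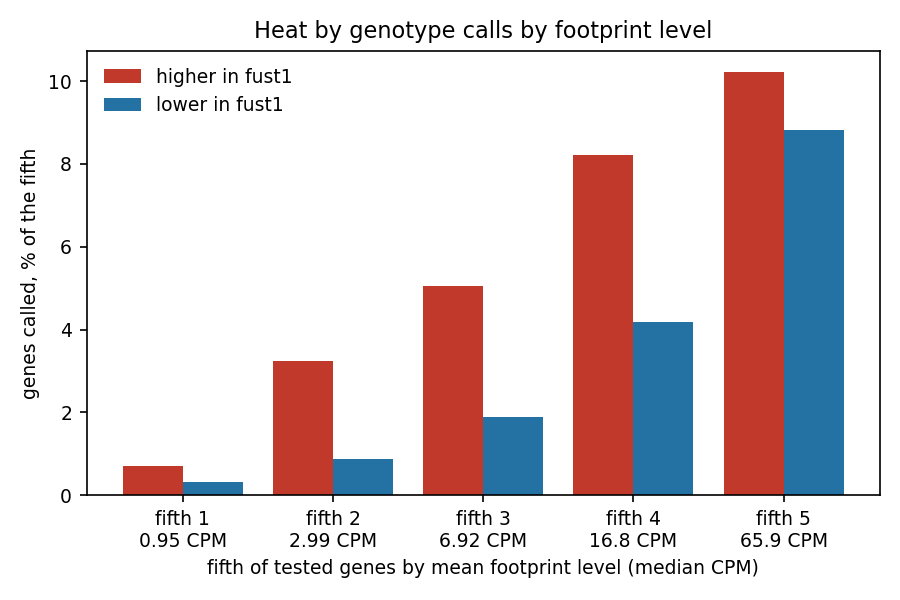
Percentage of genes called higher (red) and lower (blue) in 5 bins of tested genes ranked by mean log2 footprint level, with the median CPM of each bin under the axis. Both shares climb from the lowest bin, at 0.705 and 0.325 %, to the highest, at 10.2 and 8.81 %.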

How the data were processed

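Ribo-seq and RNA-seq were deposited as whole-number read counts per gene, made by the authors without normalization. Per the submitters' processing notes, the tools included Bowtie 1.0.1, featureCounts 1.6.2, STAR 2.7.3a and fastp 0.19.7, and the genome was TAIR10; which tool served which assay, footprint length limits and the kind of feature counted are not given in the sources used here. Footprints lie in gene counts without positions, and no molecular identifiers are named, so floors cover counting error of the empty group only. Symbols came from the RefSeq name table of TAIR10.1, used for names only (10361 genes had one); other genes are given by locus, and the gene that names the mutant was not identified in it and is not reported.

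Genes passing filterByExpr (minimum count 10, by group) entered a quasi-likelihood test in edgeR 4.0.16 (robust, TMM factors; R 4.3.3) over the 8 libraries of an assay (4 residual degrees of freedom), or 16 for TE (8). Genes were called at a Benjamini-Hochberg adjusted p of 0.05 over all genes tested. The SE was taken from each log2 change and its F statistic, and a prior count of 2 went into log CPM. p-values measure the spread between 2 replicates per group.

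Named genes were up to 8 per direction with the largest called contrast (at least 10 CPM in 1 group, counts in every library, heat changes of the genotypes not overlapping), the 4 smallest adjusted p per direction, up to 3 called members per list by adjusted p, 9 core heat genes, and up to 3 with an empty group. Further list members given by their contrast alone, and SQN, ERF-1, WRKY33 and the other genes of the RNA result, were named after their values were seen. The members and the 38 lists (1068 genes) were chosen with earlier results of these data known. Alternatives were RLE, upper-quartile and total scaling, DESeq2 1.42.0, other filters, nuclear genes only, libraries thinned to the smallest effective size, a replicate block and each library left out. The procedure was tested on simulated data.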

Additional observations from a re-analysis of the deposited data

Results flagged for a closer look

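Every gene called in the report differs between the genotypes in its heat response by the test of that difference, 1012 higher and 593 lower in footprints, 6 lower in RNA, and 172 higher and 23 lower in TE. The named genes listed here also differed between footprints and RNA, by the TE contrast (edgeR quasi-likelihood test over 16 libraries, adjusted p below 0.05). With the replicate block 55 of the 172 higher and 7 of the 23 lower TE calls were kept. The TE calls of single genes were not followed under the alternatives.

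In genes with no or nearly no Col-0 37 °C footprints the fitted TE contrast depends on the prior count and is no bound. It was 7.999 for AT1G06900, 7.498 for FIP1[V] and 7.24 for emb2458, each with 0 counts in both libraries, and 4.602 for ATR1, with 0 in 1 of them. Among genes with counts in every library GTE2 had 4.98, CBP60G 4.65, DRH1 3.53, AGY1 3.38, SVR3 3.35, TTA1 3.34, HMG1 3.19, AT5G58950 3.17 and AT2G46900 3.16. The RNA contrast was -0.20 for AGY1 and -0.03 for SVR3.

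Smaller positive TE contrasts were 3.06 for CEV1, 2.95 for ATR2, 2.52 for AT1G74470, 2.26 for PIF4, 2.15 for AT1G76810, 2.04 for SHV3, 1.85 for J3, 1.78 for PRR7 and 1.75 for CESA1. The negative ones, all from families with several copies, were -1.75 for AT1G07920 of the elongation factor list, -1.92 for AT5G18380 of the small ribosomal subunit, -2.06 for AT1G09200 and -2.21 for AT5G10400 of the histone list.

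With 2 libraries per group no single library was tested as far from its group. No interpretation of these differences was tested.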

How the results depend on the processing

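Footprint calls moved by more than 1.5 times with thinned libraries (599 higher, 369 lower) and, for genes lower, with library totals (299). No gene called in footprints was called in the opposite direction under any alternative run. Thinning costs counts, and the 1.5-fold changes with library totals go with a median of all genes of 0.20 in place of 0.08. Without 1 Ribo-seq library 482 to 1328 genes were called higher and 219 to 559 lower. RNA counts were 1 lower with library totals or upper-quartile scaling, 18 and 168 with DESeq2, 10 and 112 without the filter and 0 lower with the replicate block. Without 1 RNA-seq library they were 0 to 405 and 0 to 361. TE gave 12 lower with library totals, 530 and 172 with DESeq2 and 55 and 8 with the replicate block. Without 1 library TE gave 22 to 819 and 1 to 626. The cause was not tested.

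Same-numbered footprint replicates did not deviate together (r from -0.07 to 0.06 across genes). Pairing among the RNA-seq libraries, or of footprint with RNA-seq libraries of the same number, was not tested. The replicate block gave 991 higher and 580 lower in footprints, of which 958 and 551 were calls of the unblocked fit.

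Of 108 called named genes 70 kept their call with every library left out, and 67 under every setting in which they were tested, and no called one changed sign. Most named genes were picked for a large contrast or a small adjusted p, so the part of them kept does not stand for all calls. Over all calls, thinning kept 566 of the 1012 higher and 329 of the 593 lower. Without a call in either fit, HSFA2 (1.37) and APX2 (2.36) turned positive when thinned. With 1 library left out HSFA2 ranged from -2.19 to 0.39. It was 0.34 without Col-0 22 °C replicate 2 and 0.39 without fust1 22 °C replicate 2. In the lowest of 5 bins of genes by level the median Col-0 37 °C library held 1.5 counts per gene.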
